A study of Homo sapiens with 43 samples.

Results

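Sox2 binding sites of 5 lung squamous cell carcinoma lines were divided by whether the same line carried acetylation of histone H3 at lysine 27 (H3K27ac) at the site. A Sox2 peak of LK2, NCI-H520, HCC95, KNS62 or HCC2814 belonged to the class with own-line H3K27ac if it shared at least 1 bp with an H3K27ac peak of that line, and to the class without it otherwise. Of 50125 Sox2 peaks, 25274 fell in the class with and 24851 in the class without, out of 650700 peaks in all 27 lists. The split used the positions of Sox2 and H3K27ac peaks within a line, so the overlap itself is no result. The score, the neighbours, the other lines and the other factors were not used by it.

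Sox2, a high-mobility-group transcription factor, maintains stem and progenitor cells, and its gene is often amplified in squamous tumours. It can bind its motif on nucleosomal DNA, so its binding does not require a site to be active already. H3K27ac is deposited by the acetyltransferases p300 and CBP and marks active promoters and enhancers. Bound sites without the mark can include poised, silent and unproductive binding. Brn2 (POU3F2) is a POU-domain factor of neural progenitors, and Sox2 and POU factors are known to bind composite motifs as pairs.

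The classes were defined in unmodified human tumour cell lines, grown in RPMI-1640 with fetal bovine serum and profiled by chromatin immunoprecipitation followed by sequencing (ChIP-seq). LK2 and NCI-H520 had Sox2, Brn2 and 2 replicates of H3K27ac, of which replicate 1 defined the classes. HCC95, KNS62 and HCC2814 had Sox2 and H3K27ac, and no Brn2 list was analysed for them. Another 8 lines (Calu-1, EBC-1, HARA, HCC2279, HCC2450, LC-1/SQSF, NCI-H2887 and SQ-1) had H3K27ac alone. Further lists came from LK2_GFP and LK2_DNp63, which are derivatives of LK2, and the labels do not say how they were made. Brn2 chromatin had been cross-linked with disuccinimidyl glutarate as well as formaldehyde and digested with micrococcal nuclease, unlike that for Sox2, H3K27ac and p63, which was cross-linked with formaldehyde and sonicated.

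The number of Sox2 peaks was highest in HCC95 (14048), followed by NCI-H520 (12048), KNS62 (8907), LK2 (7611) and HCC2814 (7511). Read depth was unknown for every list, and each list except H3K27ac of LK2 and NCI-H520 was a single library. The line was therefore the unit of replication. Differences between the classes were taken within each line and tested over the 5 lines by a two-sided exact sign-flip permutation test. With 5 lines this test cannot give a p under 0.0625, so by it no measure could pass a threshold of 0.05. In measures against other lines, the lists of each line also served as comparison lists for the others. The 5 differences were therefore not independent in those measures, which the test does not take into account. Differences are given with the number of lines that shared their direction, and intervals of shares are Wilson 95% intervals that cover counting error only.

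Own-line H3K27ac was present at 35.3% of Sox2 peaks in LK2 (95% interval 34.2 to 36.3), 53.3% in NCI-H520 (52.4 to 54.2), 56.1% in HCC95 (55.3 to 57.0), 60.6% in KNS62 (59.6 to 61.6) and 38.3% in HCC2814 (37.2 to 39.4). The mean was 48.7% ± 11.3 (SD, n = 5 lines). LK2 and HCC2814 stood below the other 3 lines, and the intervals cover counting error only. The H3K27ac lists covered 29.1 Mb in LK2, 31.6 Mb in HCC2814, 48.4 Mb in NCI-H520, 57.8 Mb in HCC95 and 68.0 Mb in KNS62. The lines thus had the same order by covered length as by share of acetylated Sox2 peaks. The part of covered length in that order was not tested. With the same number of highest-score H3K27ac peaks taken from every line, the shares were 31.3% in LK2, 35.3% in HCC2814, 45.3% in KNS62, 48.7% in HCC95 and 53.3% in NCI-H520. With the centre of the Sox2 peak as the criterion they fell to 15.99% in LK2 and 24.6% in HCC2814, against 47.5% to 48.4% in the other 3 lines.

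Acetylated Sox2 sites differed between lines in where H3K27ac lay relative to the Sox2 peak. In the class with, the centre of the Sox2 peak was itself inside an H3K27ac peak for 45.4% of peaks in LK2 (95% interval 43.5 to 47.2), 64.1% in HCC2814 (62.3 to 65.8), 78.3% in KNS62, 86.3% in HCC95 and 89.6% in NCI-H520. In LK2, coverage by H3K27ac peaks was 45.4% at the centre and highest, at 70.9%, 0.4 kb away. HCC2814 showed the same central dip, from 80.5% at 0.3 kb to 64.1% at the centre. NCI-H520 had nearly no dip, at 89.6% against 90.7%. Active regulatory elements are known to carry acetylated nucleosomes beside a nucleosome-depleted centre where factors bind. Where the centre lay outside, an H3K27ac peak stood within 1 kb on each side for 49.9% of these LK2 peaks, 45.8% in HCC2814, 39.6% in KNS62, 33.9% in HCC95 and 30.6% in NCI-H520. In the class without, 0.0889% to 1.03% of peaks were flanked in this way. The split requires an overlap in the class with and excludes it in the class without. This contrast therefore follows largely from the split.

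**Figure D1:**
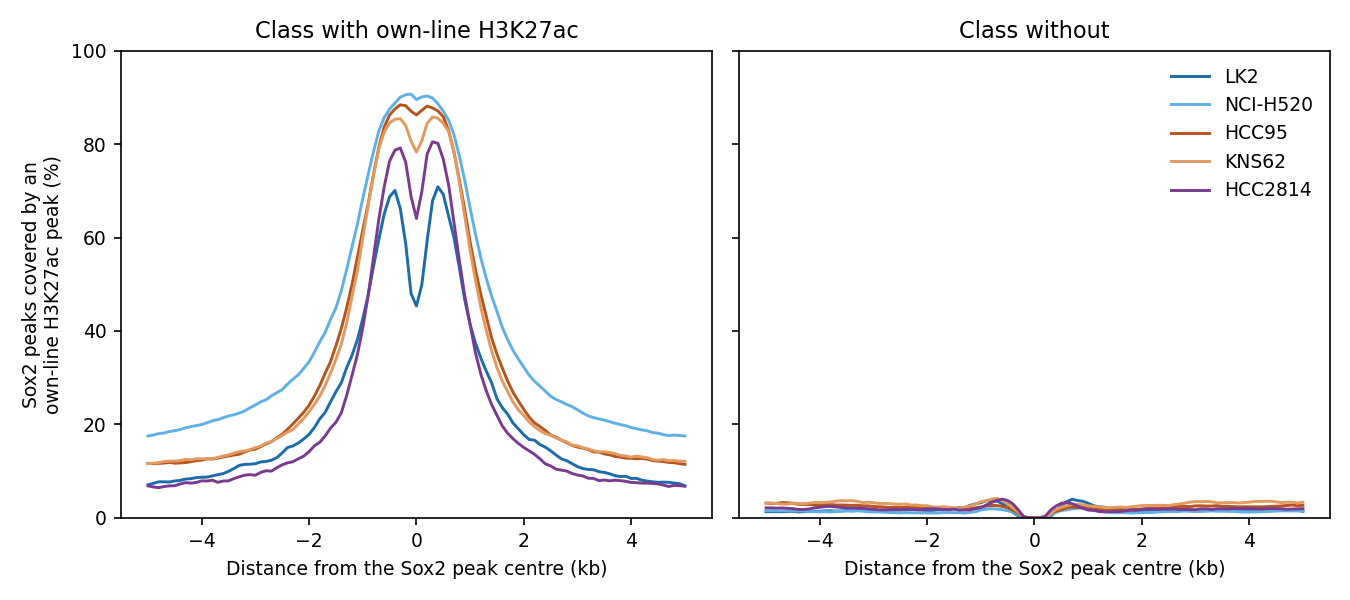
Share of Sox2 peaks (%, vertical axis) whose surroundings at a given distance from the Sox2 peak centre (kb, horizontal axis) were covered by an H3K27ac peak of the same line, 1 curve per line, with the class with own-line H3K27ac at left and the class without at right. Coverage in the class with falls at the centre to 45.4% in LK2 and to 64.1% in HCC2814, whereas NCI-H520 stays at 89.6%; the class without is at 0 at the centre by definition.

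KNS62 had a smaller dip, from 85.8% at 0.3 kb to 78.3%. The lines with the deepest dips, LK2 and HCC2814, had the narrowest H3K27ac peaks. Median H3K27ac peak width was 731 bp in LK2 and 811 bp in HCC2814, against 1310 bp in KNS62, 1329 bp in NCI-H520 and 1396 bp in HCC95. The part of this difference in the dip was not tested. H3K27ac peaks that carried Sox2 were wider than those that did not in every line, from 826 against 723 bp in LK2 to 2319 against 1164 bp in NCI-H520. A wider H3K27ac peak has more base pairs with which to meet a Sox2 peak, so this direction enters by construction.

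Peaks without own-line H3K27ac were mostly far from the mark. Their median distance to the nearest H3K27ac peak of the line was 44.3 kb for LK2, 62.1 kb for NCI-H520, 26.6 kb for HCC95, 25.6 kb for KNS62 and 34.6 kb for HCC2814. Between 4.71% (NCI-H520) and 10.3% (LK2) of them lay within 1 kb of one. In NCI-H520, 37.9% lay more than 100 kb away, and in HCC95, 18.1%.

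Strong Sox2 peaks were acetylated more often than weak ones. Peaks are ranked here by the authors' score within their own list, and a percentile of 100 is the strongest. The median percentile of the class with was 60.6 for LK2, 57.1 for NCI-H520, 55.6 for HCC95, 54.6 for KNS62 and 54.9 for HCC2814. The class without had 44.9, 43.5, 42.9, 43.4 and 47.5 in the same order. The class with was higher in 5 of 5 lines, by 12.1 percentile points ± 3.11 (SD, n = 5; exact sign-flip p = 0.0625, adjusted 0.0625). The gap was widest in LK2 (15.7) and narrowest in HCC2814 (7.38).

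Most of the relation to score lay in the upper part of each list. From the quintile (20% of a list) with the lowest scores to that with the highest, the acetylated share ran 27.6%, 27.6%, 32.5%, 38.7% and 49.9% in LK2. In NCI-H520 it ran 47.5%, 44.2%, 48.8%, 56.1% and 70.1%. The lowest quintiles of both lines did not increase stepwise, and NCI-H520 fell slightly from the lowest quintile to the next. HCC2814 had the flattest course, from 36.2% in the lowest quintile to 46.2% in the highest. HCC95 went from 49.1% to 68.2% and KNS62 from 54.1% to 70.5%. Even among the strongest quintile, then, 29.5% to 53.8% of Sox2 peaks had no own-line H3K27ac.

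**Figure D2:**
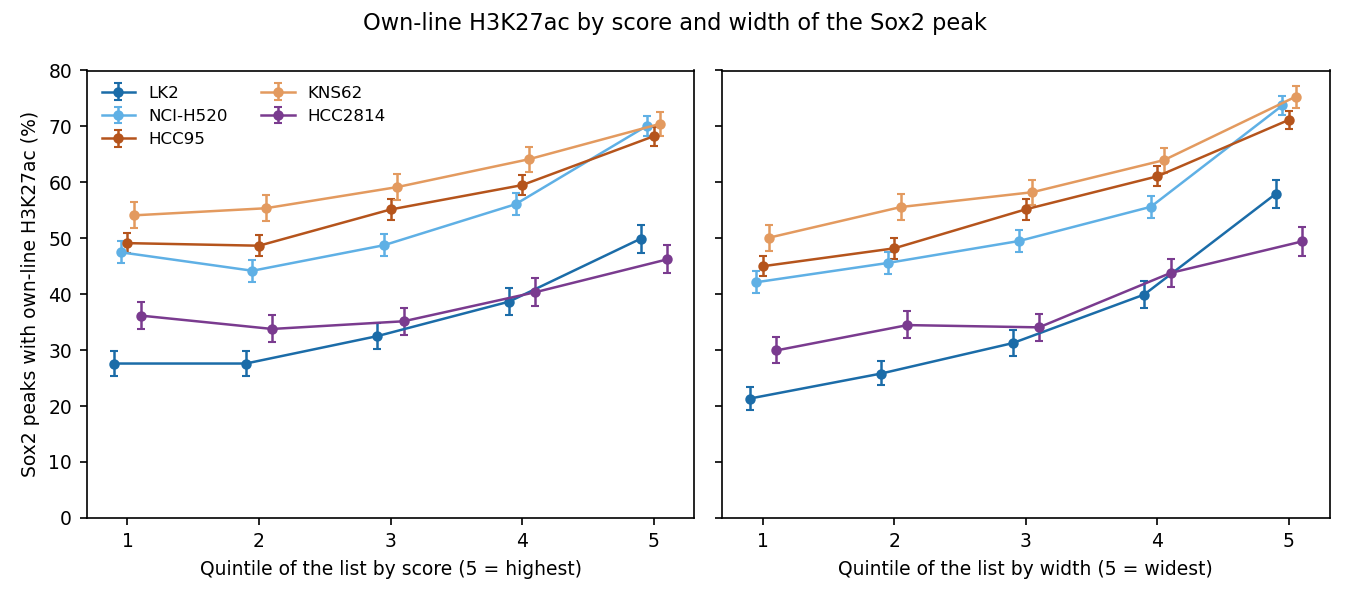
Share of Sox2 peaks with own-line H3K27ac (%, vertical axis) in quintiles of each line's Sox2 list, ordered by score at left and by width at right, 1 line of points per cell line with Wilson 95% intervals as bars. The share is higher in the top quintile than in the lowest in all 5 lines, and LK2 and HCC2814 lie below the other 3 lines, except that LK2 draws closer in the widest quintile (58.0%).

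Acetylated Sox2 peaks were also wider. Median widths in the class with were 775 bp for LK2, 504 for NCI-H520, 473 for HCC95, 531 for KNS62 and 462 for HCC2814, against 652, 444, 407, 478 and 420 bp in the class without. The difference was 68.8 bp ± 31.6 (SD, n = 5), in the same direction in 5 of 5 lines (exact sign-flip p = 0.0625, adjusted 0.0625). A wider peak has more base pairs with which to meet an H3K27ac peak, so width enters the split by construction, and score and width rise together. Among peaks of similar width (quintiles by width) the rank difference fell to a mean of 1.57 points, with -0.56 in HCC95, 0.43 in HCC2814, 2.46 in KNS62, 2.55 in NCI-H520 and 2.96 in LK2. Where the peak's centre decided the class, the rank difference was 6.08 on average and -0.37 in HCC2814. The width difference among peaks of similar score was 43.1 bp.

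Sox2 sites with own-line H3K27ac were more often Sox2 sites of other lines too. In the class with, 67.3% of LK2 peaks, 42.4% of NCI-H520, 49.8% of HCC95, 57.8% of KNS62 and 73.9% of HCC2814 peaks overlapped a Sox2 peak of at least 1 of the 4 other lines. The class without had 44.7%, 30.6%, 38.8%, 37.6% and 60.6%. The difference was 15.8 points ± 5.28 (SD, n = 5), positive in 5 of 5 lines (exact sign-flip p = 0.0625, adjusted 0.0625). It was positive in every score quintile of every line. With replicate 2 of H3K27ac the NCI-H520 difference fell from 11.8 to 6.85 points. Among the strongest quintile of NCI-H520, for example, 60.8% of acetylated and 55.3% of other peaks were shared.

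The largest gaps were those of LK2 peaks in the NCI-H520 list and of KNS62 peaks in the HCC95 list. Of LK2 peaks, 55.6% with own-line H3K27ac and 30.1% without were Sox2 peaks of NCI-H520, and of KNS62 peaks 44.9% and 22.1% were Sox2 peaks of HCC95. The reverse pairs differed less, with 28.5% and 21.0% of NCI-H520 peaks in the LK2 list and 27.05% and 17.5% of HCC95 peaks in the KNS62 list. HCC95 peaks were found in the LK2 list equally often in both classes, at 10.3% with (95% interval 9.63 to 10.97) and 10.5% without (9.81 to 11.3). That was the only one of the 20 ordered pairs of lines in which the class with was not higher.

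**Figure D3:**
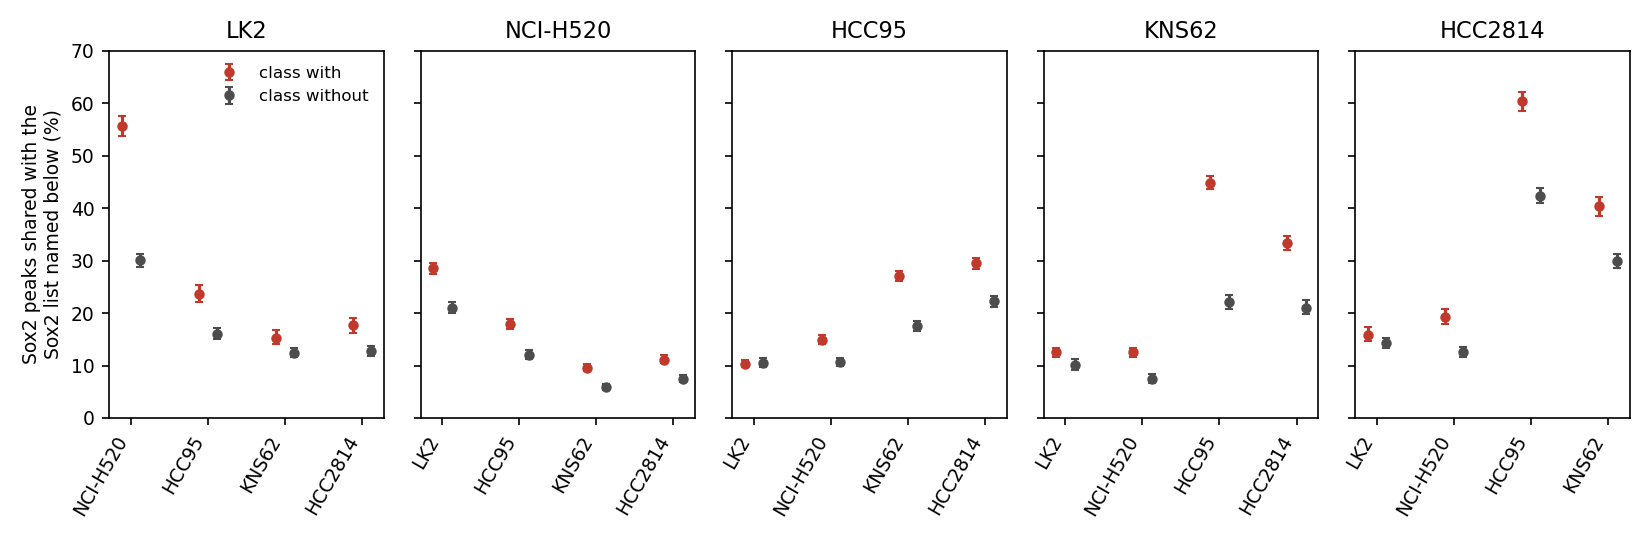
Share of the Sox2 peaks of the line named above each panel (%, vertical axis) that overlap a Sox2 peak of each other line (horizontal axis), for the class with own-line H3K27ac (red) and the class without (grey), with Wilson 95% intervals. The red point is higher in each pair except HCC95 peaks in the LK2 list (10.3% against 10.5%).

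The largest difference between the classes was in H3K27ac of other lines. A Sox2 peak with own-line H3K27ac was acetylated in a mean of 29.6% of the 12 other lines for LK2, 32.03% for NCI-H520, 43.8% for HCC95, 42.4% for KNS62 and 55.0% for HCC2814. Peaks without it were acetylated in 9.09%, 8.13%, 8.62%, 11.1% and 15.0%. No value of the class without reached any value of the class with. The difference was 30.2 points ± 7.97 (SD, n = 5), positive in 5 of 5 lines (exact sign-flip p = 0.0625, adjusted 0.0625), and it was positive for each of the 60 combinations of a Sox2 list with another line's H3K27ac.

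A large part of the unacetylated sites carried H3K27ac in none of the 13 lines, with replicate 1 alone for LK2 and NCI-H520. Replicate 2 of the own line overlapped 6.55% of all peaks in the class without in LK2 and 16.2% in NCI-H520. Among peaks without own-line H3K27ac, 71.4% in NCI-H520, 62.3% in LK2, 56.9% in HCC95, 49.1% in KNS62 and 41.8% in HCC2814 overlapped no H3K27ac peak of the 12 other lines either. The remainder were acetylated in at least 1 other line, at shares of 28.6% (NCI-H520) to 58.2% (HCC2814). In the class with, 68.3% (NCI-H520) to 96.9% (HCC2814) had H3K27ac in at least 1 other line. The difference in this share was 42.3 points ± 3.72 (SD, n = 5; 5 of 5 lines, exact sign-flip p = 0.0625, adjusted 0.0625). Acetylation in all 12 other lines was found at 6.30% (KNS62) to 16.03% (NCI-H520) of the class with. In the class without it was found at 0.325% of peaks in LK2, 0.836% in NCI-H520, 0.108% in HCC2814 and 0 peaks in HCC95 and KNS62, counts of 0 that allow shares of up to 0.0487% and 0.0856% by a limit of 3 counts (Wilson upper bounds 0.0623% and 0.109%).

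**Figure D4:**
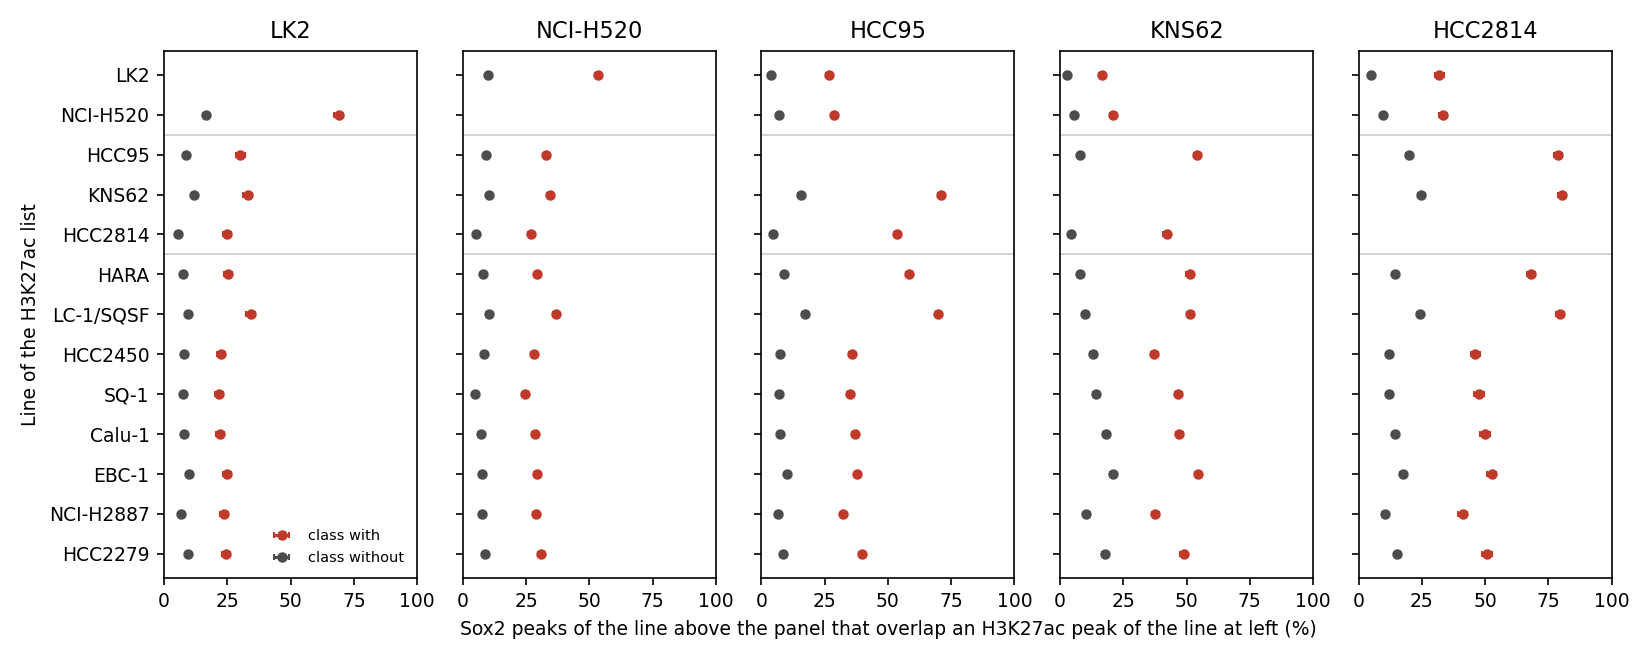
Share of Sox2 peaks of the line named above each panel (%, horizontal axis) that overlap an H3K27ac peak of the line named at left, for the class with own-line H3K27ac (red) and the class without (grey), with Wilson 95% intervals; grey rules separate LK2 and NCI-H520, the 3 other Sox2 lines and the 8 lines with H3K27ac alone. Red points lie to the right of grey points in every row, and LK2 and NCI-H520 have their highest red point in each other's list (69.0% and 53.5%).

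Score and breadth of acetylation ran in opposite directions within the acetylated class. Acetylated LK2 peaks of the lowest score quintile were acetylated in a mean of 39.2% of the 12 other lines, and those of the highest quintile in 22.8%. The values were 41.2% and 21.5% in NCI-H520, 50.7% and 37.6% in HCC95, 44.1% and 42.8% in KNS62 and 58.2% and 50.7% in HCC2814. The highest quintile was lower in 5 of 5 lines, although the change in KNS62 was small and the quintiles between did not fall steadily there. Over the same quintiles the share of these peaks that were Sox2 peaks of another line went from 57.9% to 79.5% in LK2 and from 24.98% to 60.8% in NCI-H520. In all 5 lines the strongest quintile of acetylated Sox2 sites was thus more shared as Sox2 sites, and less widely acetylated, than the weakest. This comparison was chosen after the values had been seen and was not tested.

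In both classes H3K27ac in another line went with Sox2 in that line. Among LK2 peaks without own-line H3K27ac, sites that were Sox2 peaks of another profiled line were acetylated in that line in 38.0% of cases (mean over 4 lines), and sites that were not in 4.96%. The shares were 32.3% and 6.32% for NCI-H520, 28.1% and 4.24% for HCC95, 22.6% and 2.43% for KNS62 and 38.9% and 6.70% for HCC2814. The difference was 27.03 points ± 5.52 (SD, n = 5; 5 of 5 lines, exact sign-flip p = 0.0625, adjusted 0.0625). In the class with, the corresponding shares were 66.4% to 82.0% with Sox2 in the other line and 22.6% to 45.3% without it, a difference of 42.5 points ± 6.84 (SD, n = 5; 5 of 5 lines, exact sign-flip p = 0.0625, adjusted 0.0625).

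Own-line class and Sox2 in the other line therefore each went with acetylation there. Which of them went with the higher share differed between lines. Unacetylated sites bound in the other line were acetylated there more often than acetylated sites not bound there in LK2 (38.0% against 25.7%) and NCI-H520 (32.3% against 30.5%), and less often in HCC95 (28.1% against 38.4%) and HCC2814 (38.9% against 45.3%). In KNS62 both shares were 22.6%, and these differences were not tested. LK2 peaks without H3K27ac that were Sox2 peaks of KNS62 were acetylated in KNS62 in 52.8% of 612 cases (95% interval 48.8 to 56.7), the highest share among these pairs. KNS62 peaks without H3K27ac that were Sox2 peaks of HCC2814 were acetylated in HCC2814 in 11.2% of 738 cases (9.16 to 13.7), the lowest. Both shares were below those over all Sox2 peaks of the other line, 60.6% in KNS62 and 38.3% in HCC2814. KNS62 had the longest H3K27ac coverage of the 5 lines and HCC2814 nearly the shortest.

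**Figure D5:**
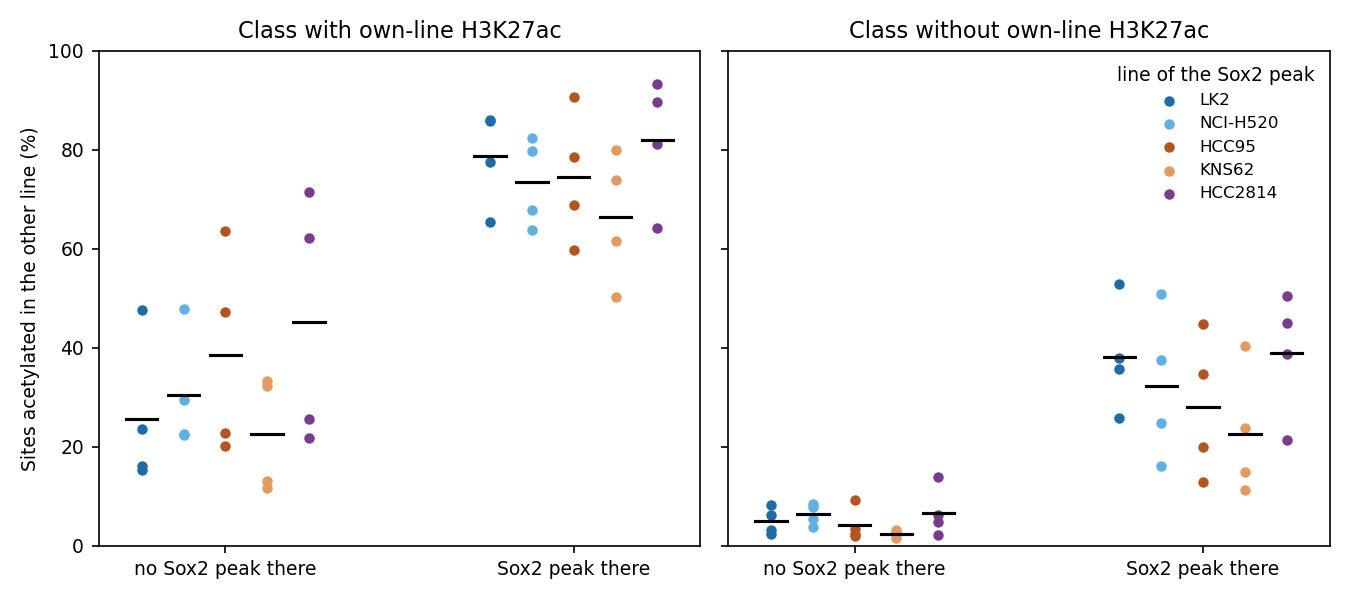
Share of Sox2 sites acetylated in another profiled line (%, vertical axis), where that line had no Sox2 peak at the site and where it had one (horizontal axis), for sites with own-line H3K27ac at left and without at right; each point is 1 of 4 other lines, coloured by the line that gave the Sox2 peaks, and black bars are the means. Means in the class without lie at 2.43% to 6.70% where Sox2 was missing and at 22.6% to 38.9% where it was present.

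The classes also differed in how far they followed the division of the lines by ChIP experiment, with LK2 and NCI-H520 (Sox2 and Brn2) in 1 group and HCC95, KNS62 and HCC2814 (Sox2 without Brn2) in the other. LK2 peaks with own-line H3K27ac were acetylated in NCI-H520 in 69.0% of cases and in the 3 lines of the other group in 29.3% on average, and LK2 peaks without it in 16.4% and 8.69%. HCC95 peaks with it were acetylated in 62.2% on average in KNS62 and HCC2814 and in 27.7% in LK2 and NCI-H520, and those without it in 10.1% and 5.30%. The same-group excess was greater in the class with by 28.3 points ± 4.77 for H3K27ac and 10.7 points ± 6.76 for Sox2 sharing (SD, n = 5; 5 of 5 lines and exact sign-flip p = 0.0625 for each). The class without starts from lower shares, and as a ratio of same-group to other-group shares the direction depended on the line. For H3K27ac the ratio was higher in the class with in 4 of 5 lines, and in HCC2814 it was 2.44 with and 3.05 without. For Sox2 it was likewise higher in 4 of 5 lines, and in NCI-H520 it was 2.21 with and 2.48 without. These 2 comparisons were added after the values had been seen.

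Acetylated Sox2 peaks lay in denser clusters of Sox2 peaks. Another Sox2 peak of the same list stood within 10 kb of 24.3% of acetylated peaks for LK2, 35.4% for NCI-H520, 37.1% for HCC95, 27.2% for KNS62 and 27.1% for HCC2814. In the class without the shares were 11.7%, 12.3%, 17.5%, 12.8% and 13.2%. The difference was 16.7 points ± 4.47 (SD, n = 5; 5 of 5 lines, exact sign-flip p = 0.0625, adjusted 0.0625). Median distances to the nearest Sox2 peak were 18.9 to 52.1 kb in the class with and 46.9 to 88.7 kb in the class without. Neighbours tended to share their class, less so in the class without. The nearest Sox2 peak within 10 kb was acetylated for 74.3% of acetylated LK2 peaks and 90.0% of acetylated NCI-H520 peaks, and for 30.0% and 36.8% of peaks in the class without. In HCC95 the shares were 84.3% with and 45.1% without, in KNS62 86.3% and 47.1%, and in HCC2814 74.1% and 33.2%. Neighbours can overlap the same H3K27ac peak, so part of the agreement in the class with can enter by construction.

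Brn2 overlapped acetylated Sox2 sites more often than the others in both lines with a Brn2 list. In LK2, 861 of 2683 acetylated Sox2 peaks (32.1%, 95% interval 30.4 to 33.9) and 946 of 4928 others (19.2%, 18.1 to 20.3) overlapped a Brn2 peak. In NCI-H520 the counts were 207 of 6425 (3.22%, 2.82 to 3.68) and 24 of 5623 (0.427%, 0.287 to 0.634). The 2 lines gave differences of 12.9 and 2.79 points. The intervals cover counting error only. The difference was not tested, since the sign-flip test over 2 lines cannot give a p under 0.5. The Brn2 list of LK2 held 4819 peaks and that of NCI-H520 held 1298, so the levels of the 2 lines cannot be compared.

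In LK2, Brn2 followed the Sox2 score within each class. Brn2 overlap went from 16.9% of acetylated peaks in the lowest score quintile to 56.2% in the highest, and from 8.98% to 41.7% in the class without. In that quintile 318 of 763 unacetylated Sox2 peaks of LK2 thus carried Brn2. Within width quintiles the LK2 difference between the classes was 6.88 points and within score quintiles 7.89, down from 12.9. With the centre of the Sox2 peak as the criterion it was 5.29.

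Seen from Brn2, the lines went opposite ways. In NCI-H520, Brn2 peaks that overlapped Sox2 were acetylated in 88.1% of cases (95% interval 83.4 to 91.7) and Brn2 peaks without Sox2 in 56.5% (53.5 to 59.5). In LK2, Brn2 peaks with Sox2 were acetylated in 38.5% (36.4 to 40.7) and those without Sox2 in 50.6% (48.7 to 52.4). Of Sox2 peaks with Brn2, 89.6% were acetylated in NCI-H520 and 47.6% in LK2. In LK2 the share at sites with both factors was thus lower by the Brn2 peak than by the Sox2 peak. Brn2 peaks of LK2 were narrower, with a median of 335 bp against 686 bp for Sox2. The contrast seen from Brn2 used replicate 1 and the 1 bp overlap only. Whether its direction in LK2 depends on these choices was not tested.

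Further libraries that the split had not used repeated the classes in part. Replicate 2 of H3K27ac covered 72.3% of acetylated and 6.55% of other Sox2 peaks in LK2, and 86.3% and 16.2% in NCI-H520. The class was the same with either replicate for 86.0% of Sox2 peaks in LK2 and 85.1% in NCI-H520. H3K27ac of LK2_GFP covered 83.7% and 19.5% of LK2 Sox2 peaks in the 2 classes, and that of LK2_DNp63 65.7% and 14.5%. Sox2 peaks of LK2_GFP covered 93.3% of acetylated and 82.1% of other LK2 peaks, and those of LK2_DNp63 47.0% and 35.5%.

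Peaks acetylated in 1 replicate only fell between the classes in LK2. Their mean acetylation in the 12 other lines was 22.2% for replicate 1 only and 16.8% for replicate 2 only, against 32.5% for both and 8.55% for neither. NCI-H520 peaks with replicate 1 only had 10.1%, closer to peaks with neither (5.43%) than to those with replicate 2 only (22.1%) or both (35.5%). NCI-H520 peaks with replicate 2 only were shared with another Sox2 list in 26.5% of cases, below the 31.4% of peaks with neither and the 42.3% of peaks with both. For peaks acetylated in both replicates Brn2 overlap was 36.2% in LK2 and 3.63% in NCI-H520, and for those acetylated in neither 18.3% and 0.382%.

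The p63 peaks of LK2_DNp63 also overlapped acetylated Sox2 sites more often. Basal and squamous epithelia depend on p63 for their identity. Overlap was 8.78% with and 3.20% without own-line H3K27ac for HCC95 Sox2 peaks, 6.15% and 1.48% for KNS62, 7.64% and 3.56% for HCC2814, 3.76% and 1.502% for LK2 and 1.79% and 0.907% for NCI-H520. The class with was higher in 5 of 5 lines. All these shares rest on 1 p63 library of 1 derivative line and were not tested.

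Sites merged across lines were acetylated more often when more lines bound them. Of 35819 merged Sox2 sites, 25975 were bound in 1 line, and 44.5% of these were acetylated in it. The mean share of binding lines with H3K27ac was 54.1% for sites of 2 lines, 58.6% for 3, 59.6% for 4 and 65.0% for the 283 sites of all 5. Sites acetylated in none of the lines that bound them fell from 55.5% to 32.5%, 21.3%, 16.1% and 9.54%. A site bound in more lines has more chances of a mark in at least 1, so the last series falls by construction if lines are independent. When 2 lines bound the same site, they had the same class in 62.5% (LK2 with KNS62) to 78.4% (HCC95 with KNS62) of cases.

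Binding in every line did not settle the class. Of the 283 sites bound by Sox2 in all 5 lines, 105 were acetylated in all 5, 27 in none and 151 in some. The most frequent mixed pattern was acetylation in KNS62 alone (22 sites). All lines but HCC2814 were acetylated at 17 sites and all but LK2 at 16. The patterns that followed the groups of lines were less frequent. LK2 and NCI-H520 alone were acetylated at 9 sites, and HCC95, KNS62 and HCC2814 alone at 12. Per line, 55.1% (HCC2814) to 78.8% (KNS62) of the 283 sites carried own-line H3K27ac.

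Single sites show how strong Sox2 binding and H3K27ac came apart. Coordinates are on hg19, and no annotation of that build was used, so genes are not named. The site chr1:234136289-234136927 had a score of 1158.82 in HCC2814 and was a Sox2 peak in all 5 lists, yet it overlapped no H3K27ac peak in any of the 13 lines, and the nearest one of HCC2814 lay 94.8 kb away. In LK2 the Sox2 peak chr3:117192625-117193390 (score 646.41, also a peak of NCI-H520) had no H3K27ac in any line, and the nearest LK2 H3K27ac peak was 312.8 kb away. Among sites bound in all 5 lines with no own-line H3K27ac in any, the strongest by mean rank was chr11:16023161-16024274, with scores of 256.4 to 444.29. It was acetylated in EBC-1 and NCI-H2887, lines without a Sox2 list.

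Other strong unacetylated peaks carried the mark elsewhere. The strongest such peak of LK2, on chromosome 8, had a score of 700.57 there and 1130.68 in NCI-H520, where it was unacetylated as well. HCC95, KNS62 and HCC2814 had Sox2 scores of 625.91, 242.2 and 100.61 at the site, all 3 with H3K27ac, so the mark was missing in the lines with the higher scores, although scores of different lists are not on 1 scale. The KNS62 peak chr20:10287161-10288304 (score 1027) was in no other Sox2 list and was acetylated in 5 of the 8 lines with H3K27ac alone. The HCC95 peaks chr5:16754441-16755302 and chr2:214116808-214117574, with scores of 2026.14 and 1625.83, were acetylated in 1 and 4 other lines.

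Some of the highest scores lay beside centromeres, in repeat-rich sequence. The Sox2 peak at chr10:42596685-42600709 was the strongest of NCI-H520, and its counterparts in HCC95, KNS62 and HCC2814 had scores of 3100, 1882.01 and 3100. It was 4025 bp wide in NCI-H520, against a median of 444 bp in the class without, and it was acetylated in HCC95 and HCC2814 and not in NCI-H520 or KNS62. The unacetylated peaks chr1:121480773-121485546 of NCI-H520 and chr6:58775977-58780223 of HCC2814 were 4774 and 4247 bp wide and had no H3K27ac in any line. Whether these 3 sites reflect Sox2 binding was not tested.

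The strongest acetylated peaks were of several kinds. The KNS62 peak chr12:31901942-31902750 was a Sox2 peak in all 5 lists and overlapped H3K27ac peaks of all 13 lines, but its overlap in KNS62 did not reach its centre or 50% of the shorter peak. The LK2 peak chr1:150448906-150450361 (score 1051.35) also carried Brn2 and was acetylated in LK2, NCI-H520, KNS62 and SQ-1. In NCI-H520 the peaks chr1:40363637-40365216 and chr16:50496840-50497757, with scores of 1619.49 and 1567.63, were acetylated in LK2 and NCI-H520 only, and both overlapped a Brn2 peak of LK2. The HCC95 peak chr3:183197113-183198117 (score 3100) was acetylated in HCC95, HCC2814 and LC-1/SQSF. The KNS62 peak chr5:27906354-27907696 was acetylated in KNS62, HCC2814, HARA and LC-1/SQSF, and the HCC2814 peak chr9:140196612-140197080 in 9 lines. The latter would also have been unacetylated in HCC2814 by its centre or by an overlap of 50%.

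A pair of sites bound in all 5 lines, picked by their acetylation pattern, show the division of the lines in the mark alone. At chr15:31598365-31599457, Sox2 scores ran from 212.99 in LK2 to 838.29 in NCI-H520, and of the 13 lines LK2 and NCI-H520 alone were acetylated. At chr14:61990356-61991658, Sox2 scores ran from 192.77 in NCI-H520 to 1328.18 in HCC95, and all 11 lines other than LK2 and NCI-H520 were acetylated. Both sites overlapped a Brn2 peak of LK2. They were the strongest of their patterns by mean rank, and the next sites divided the 13 lines less sharply. Those of the first pattern were acetylated in 7 and 6 lines. Those of the second were acetylated in 5 and 7 lines, the 7 including LK2.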

How the data were processed

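ChIP-seq libraries of H3K27ac, Sox2, Brn2 and p63 were sequenced as 75 bp paired-end reads on a NextSeq 500, per the labels' protocols. The 43 samples gave 27 peak lists, 1 per sample, and the 16 inputs were not analysed here. The submitters' processing notes name Bowtie2 and the build hg19 (GRCh37). The deposited lists hold each peak's position and a score that is the authors' own value. Peak names begin with MACS, for which no version, threshold or use of inputs is stated. No score was below 50, its scale is not stated, and it was used for ranks within a list. No read counts were at hand, so depth is unknown and peak number and covered length follow how much was listed.

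Of 50296 Sox2 peaks, 171 outside chromosomes 1 to 22 and X were left out, and coordinates are 1-based. Overlaps, medians, Wilson 95% intervals and exact sign-flip permutation tests over the 5 lines were computed in Python 3.11.15 with numpy 2.4.6 and scipy 1.17.1, and p-values were adjusted by Benjamini-Hochberg over 10 tests. The overlap and test code was tested on simulated peaks. Whether libraries stem from separate cultures is not said in the labels. The p-values then speak only for these lists, and part of the differences among the lists may be technical. With 1 sign in all 5 lines, the exact sign-flip p is 0.0625 whatever the spread, so it measures agreement of direction. The members, classes and measures were chosen with earlier results of these data known. Named peaks are the 2 highest by score in each line and class. For LK2 and NCI-H520 the 3 highest peaks without H3K27ac that overlapped own-line Brn2 were added. Sites bound in all 5 lines were picked by class pattern and mean rank and were not put through the alternatives. Alternatives were another overlap rule, the peak centre, 200 bp peaks, replicate 2, LK2_GFP, equal numbers of peaks, no edge peaks, quintiles of score or width, and each line left out. Promoter shares, motifs, sequences, gene names and a check of the lines against marker genes need a genome of this build and were not analysed here.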

Additional observations from a re-analysis of the deposited data

Results flagged for a closer look

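In groups of 5 lines, 1 line stood apart from the other 4 in 3 of 31 sets of values examined, and chance flags about 1 in 20 such sets. LK2 had the widest Sox2 peaks in both classes, with medians of 775 bp in the class with own-line H3K27ac (other lines 462 to 531) and 652 bp in the class without (other lines 407 to 478). HCC95 had the largest share of unacetylated Sox2 peaks with another Sox2 peak within 10 kb, at 17.5% against 11.7% to 13.2% in the other lines. Its Sox2 list was also the longest, with 14048 peaks.

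The lines LK2 and NCI-H520 differed in direction in the acetylation of Brn2 peaks with and without Sox2. In NCI-H520 Brn2 peaks with Sox2 were acetylated more often than those without, by 31.6 points, and in LK2 the difference was -12.0 points. Each line had 1 Brn2 library, so the difference between the lines was not tested. No alternative overlap rule or replicate was applied to this contrast.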

How the results depend on the processing

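Across 184 pairs of a class result and an alternative, none changed the direction of the mean, and in 156 of 158 pairs with a test every line kept its sign. The exceptions were the score rank among peaks of similar width (mean 1.57, HCC95 -0.56) and with the split by the peak centre (6.08, HCC2814 -0.37). Part of these counts was fixed in advance. All 5 lines had the same sign in every tested result, so leaving 1 line out could not reverse it. The share of acetylated peaks is positive by definition. Alternatives that replaced lists of LK2 or NCI-H520 left the classes of the other lines unchanged. The rank difference was 7.75 where an overlap needed 50% of the shorter peak. The mean share of Sox2 peaks with own-line H3K27ac fell to 36.8% with the split by the centre and was 45.8% to 52.1% with 1 line left out. Over the alternatives that kept all 5 lines, the mean difference in Sox2 sharing was 12.3 to 16.3 points and that in H3K27ac of other lines 28.6 to 32.1, whereas single lines moved further in sharing (NCI-H520 to 6.85 with replicate 2, HCC95 to 6.45 within width quintiles, HCC2814 to 8.03 with the 50% overlap). The Brn2 difference, 7.84 points on average, ran from 3.99 (peak centre) to 10.6 (H3K27ac in both replicates against neither, added after seeing the data), and was 2.79 without LK2 and 12.9 without NCI-H520. With 4 lines the smallest p is 0.125. Of 26 named entries, 24 kept their class in every alternative applied to them. Those at chr12:31901942-31902750 and chr9:140196612-140197080 lost H3K27ac with the 50% overlap and the centre split. The strongest unacetylated peaks of LK2 and NCI-H520 were each counted again as peaks with Brn2. Entries without own-line H3K27ac could gain it only through replicate 2, because the other alternatives only removed overlaps. Those of HCC95, KNS62 and HCC2814 could not change, so this count was in part fixed in advance too. No paired analysis was possible because replicate numbers, which would form the pairs, exist for H3K27ac of LK2 and NCI-H520 alone; the class tests are instead paired by line. Alternatives that need a genome (promoters, motifs) were not run.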

Other observations

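On 12 of 23 chromosomes the share of Sox2 peaks with own-line H3K27ac lay on the same side of the line's own average in all 5 lines. It was above it in 5 of 5 lines on chromosomes 1, 12, 16, 17 and 19, and below it in 5 of 5 lines on chromosomes 2, 4, 6, 8, 13, 18 and X. Chromosome 19, which is gene-dense, had the highest mean at 63.2% ± 6.05 (SD, n = 5 lines), from 54.3% in HCC2814 to 69.6% in KNS62. Gene-poor chromosomes 4 and 13 had 37.7% ± 10.99 and 40.2% ± 11.7, and X had 35.6% ± 10.8. Peak numbers per chromosome were small in places (43 Sox2 peaks on chromosome 19 in LK2), the other 11 chromosomes had lines on both sides, and the order of chromosomes was not tested.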
